A study of Mus musculus with 5 samples.

Results

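Alveolar macrophages (AMs) are recognised by a set of mostly surface-bound proteins, and the genes of 10 of them were examined here for RXRα peaks: Siglecf, Itgax, Cd69, Marco, Mrc1, Chil3, Car4, Cdh1, Mcam and Cd2. A peak was given to the protein-coding gene whose transcription start site (TSS) lay nearest to its midpoint. The 10 genes, out of 21911 protein-coding genes, were taken by name, with no peak value in the rule. They were listed, however, with earlier results of these data known. The study names Siglecf, Cd69 and Cd2 among the genes that it took to be under direct RXR control. The 10 genes received 50 of the 14808 peaks in 4 lists. The lists came from HT-ChIPmentation, in which chromatin is immunoprecipitated, here with an antibody against RXRα, and the library is made on the beads by a transposase. AMs were sorted from the bronchoalveolar lavage of mouse lungs. WT A and WT G carried floxed Rxra and Rxrb without Cre (CD11cCre- Rxrabfl/fl), and KO A and KO G carried the same floxed alleles with Cre (CD11cCre+ Rxrabfl/fl), which is driven by Cd11c, the gene listed here as Itgax. The mice of both genotypes were 9 weeks old by the text of the study, since the labels give no age. An input sample served as control for the peak caller, and no file of it was used here.

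Several limits apply to these groups. No source used here says whether the libraries of a genotype came from separate mice or from pools, so the spread between them may be technical. The sort used SiglecF, the product of a member gene. Peak lists hold no expression values, so neither the AM label nor the deletion could be checked with them. A gene without a peak in a list is one where none was called, which is not the same as absence of binding.

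RXRs are nuclear receptors that bind DNA as heterodimers with partners such as PPARγ, LXR and RAR, typically at repeats of a short hexamer whose spacing depends on the partner. In AMs, PPARγ is a central regulator of identity and lipid handling. Nuclear receptors often act from enhancers far from the gene, and the nearest TSS is a convention for naming a peak, not evidence of a target.

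Peaks near the member genes were found mainly in WT. WT A had 15, WT G had 32, KO A had 1 and KO G had 2. Both WT libraries lay above both KO libraries, with a mean of 23.5 ± 12.02 (SD, n = 2) for WT and 1.5 ± 0.707 (SD, n = 2) for KO, a difference of 22 peaks. By a two-sided exact permutation test p was 0.333, which is as low as 2 libraries against 2 can reach, and the comparison could not pass 0.05. Over the whole lists, which held 4751, 9766, 83 and 208 peaks, the mean in WT was 49.9 times that in KO, against 15.7 times near the members. The latter rests on 3 KO peaks and ran from 10 without WT G to 23.5 without KO G when each library was left out, and the difference between the ratios was not tested. The WT libraries themselves differed by 2.13-fold near the members, against 2.06-fold over the whole lists. With WT G cut to as many peaks as WT A by −log10 q, its member peaks fell from 32 to 18, beside 15 in WT A. Member peaks made up 0.316% of the WT A list, 0.328% of the WT G list, 1.2% of the KO A list and 0.962% of the KO G list, the KO shares resting on 1 and 2 peaks.

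**Figure D1:**
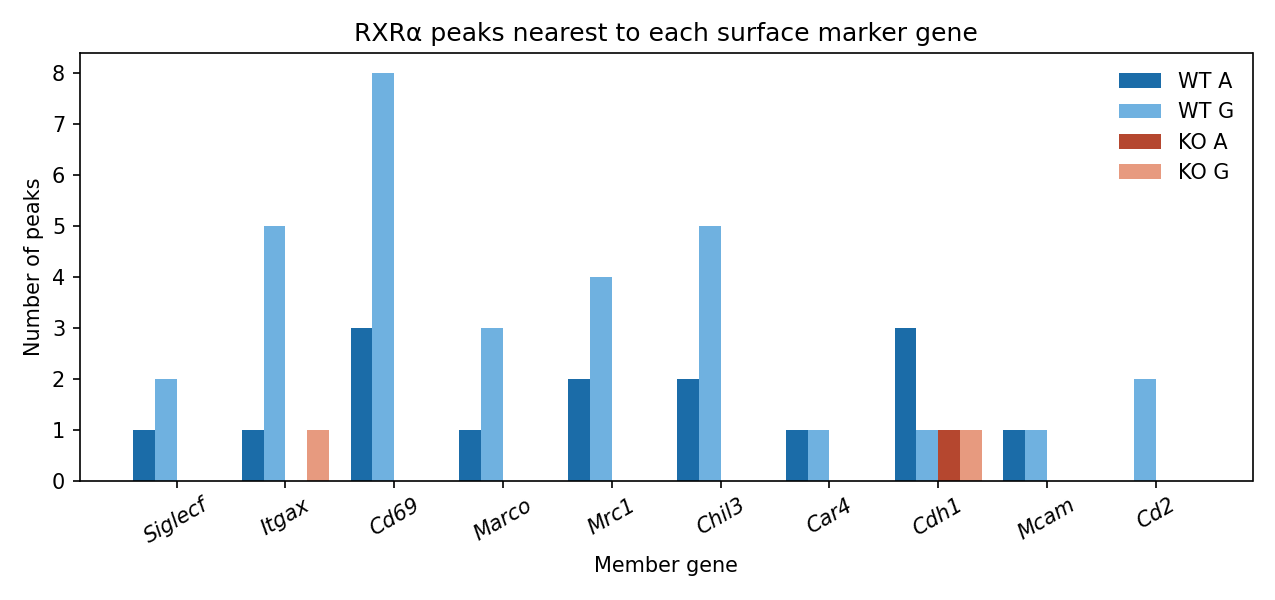
Number of peaks (vertical axis) nearest to each of the 10 member genes (horizontal axis) in the WT A, WT G, KO A and KO G lists, 1 bar per list and no bar where there was no peak. Cd69 had the most peaks, with 8 in WT G, and KO peaks were found at Cdh1 and Itgax.

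Joining WT peaks that overlapped by at least 1 bp gave 32 member regions. Of these, 12 had a peak in both WT lists (37.5%, 95% exact binomial interval 21.1 to 56.3, covering counting error only), against 32.7% of all 10461 WT regions. Such intervals treat regions as independent, though several were clustered at the same gene, so they may be too narrow. The other 20 (62.5%) had a WT G peak alone, against 59.6% of all WT regions. No member region had a WT A peak alone, against 7.64% of all, and 0 of 32 is too few to set it apart from that share. Each of the WT A peaks therefore lay in a region that WT G also called. A region in both lists was found at 9 of the 10 genes, against 8.82% of all protein-coding genes, and the gene without one was Cd2. The 9 genes are a description, since they were listed with earlier results of these data known.

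The sequences at the summits are shown because they are where a receptor site would be looked for. Each line gives the plus strand of mm10, with 50 bases to either side of the stronger WT summit, for the strongest region in both WT lists of 8 genes. Capitals mark exact matches, on either strand, to the consensus letters of PU.1 (AGGAAGT), C/EBP (TTGCNNAA), RUNX (TGTGGT) or RBPJ (TGGGAA), where N is any base.
Siglecf, chr7:43353216-43353316: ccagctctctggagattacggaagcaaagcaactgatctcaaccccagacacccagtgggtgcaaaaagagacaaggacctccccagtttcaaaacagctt
Itgax, chr7:128133752-128133852: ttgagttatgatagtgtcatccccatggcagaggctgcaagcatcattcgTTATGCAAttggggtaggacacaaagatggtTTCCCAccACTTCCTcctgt
Cd69, chr6:129234033-129234133: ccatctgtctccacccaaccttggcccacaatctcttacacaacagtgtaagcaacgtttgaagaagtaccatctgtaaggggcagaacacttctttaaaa
Marco, chr1:120524260-120524360: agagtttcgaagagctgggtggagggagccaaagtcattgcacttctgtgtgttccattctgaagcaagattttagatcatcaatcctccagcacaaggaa
Mrc1, chr2:14250383-14250483: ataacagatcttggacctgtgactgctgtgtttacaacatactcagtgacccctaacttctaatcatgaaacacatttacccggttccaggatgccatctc
Chil3, chr3:106170630-106170730: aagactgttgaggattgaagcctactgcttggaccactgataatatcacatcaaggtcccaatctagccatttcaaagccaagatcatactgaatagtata
Car4, chr11:85003698-85003798: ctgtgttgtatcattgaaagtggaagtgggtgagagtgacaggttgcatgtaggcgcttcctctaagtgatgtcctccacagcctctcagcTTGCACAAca
Cdh1, chr8:106612255-106612355: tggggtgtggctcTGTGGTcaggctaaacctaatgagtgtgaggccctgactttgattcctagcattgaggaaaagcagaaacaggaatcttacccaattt

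None of the 12 member regions in both WT lists held a DR1, a pair of AGGTCA hexamers in the same orientation with 1 base between, with at most 2 mismatches, in this window. The share of 0 of 12 has an exact binomial interval of 0 to 26.5%, and 6.34% of all 3423 regions in both WT lists held one, so 12 regions cannot show a difference. DR4 and DR5, the same repeats with 4 and 5 bases between, were not found either (1.90% and 2.57% of all regions), nor was a single exact AGGTCA (15.2%). A match to PU.1, a myeloid lineage factor, was present in 2 of the 12 (10.7% of all), at Itgax and at a weaker Cd69 region. The letters of C/EBP, a family of myeloid factors, were present in 2 (11.0%), at Itgax and Car4. RUNX was matched at Cdh1 (14.3%), in the window at the WT G summit. RBPJ, the effector of Notch signalling, was matched at Itgax (9.85%). STAT5 (TTCNNNGAA, 3.77%), AP-1 (TGANTCA, 7.51%) and the E-box (CACGTG, 1.81%) were matched at none. At Itgax the C/EBP letters covered the summit base, with their centre 4 bp from it. The centre of the PU.1 letters lay 42 bp from the summit. These matches are descriptions of the letters in a window and say nothing of which protein was bound.

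The regions are given below with the fold enrichment at the summit over the local input background and the −log10 q of the peak, both as the peak caller wrote them, and with the number of fragments at the summit, which was derived from those values. Positions are in mm10. Distances run from the nearest TSS to the midpoint of the region.

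**Figure D2:**
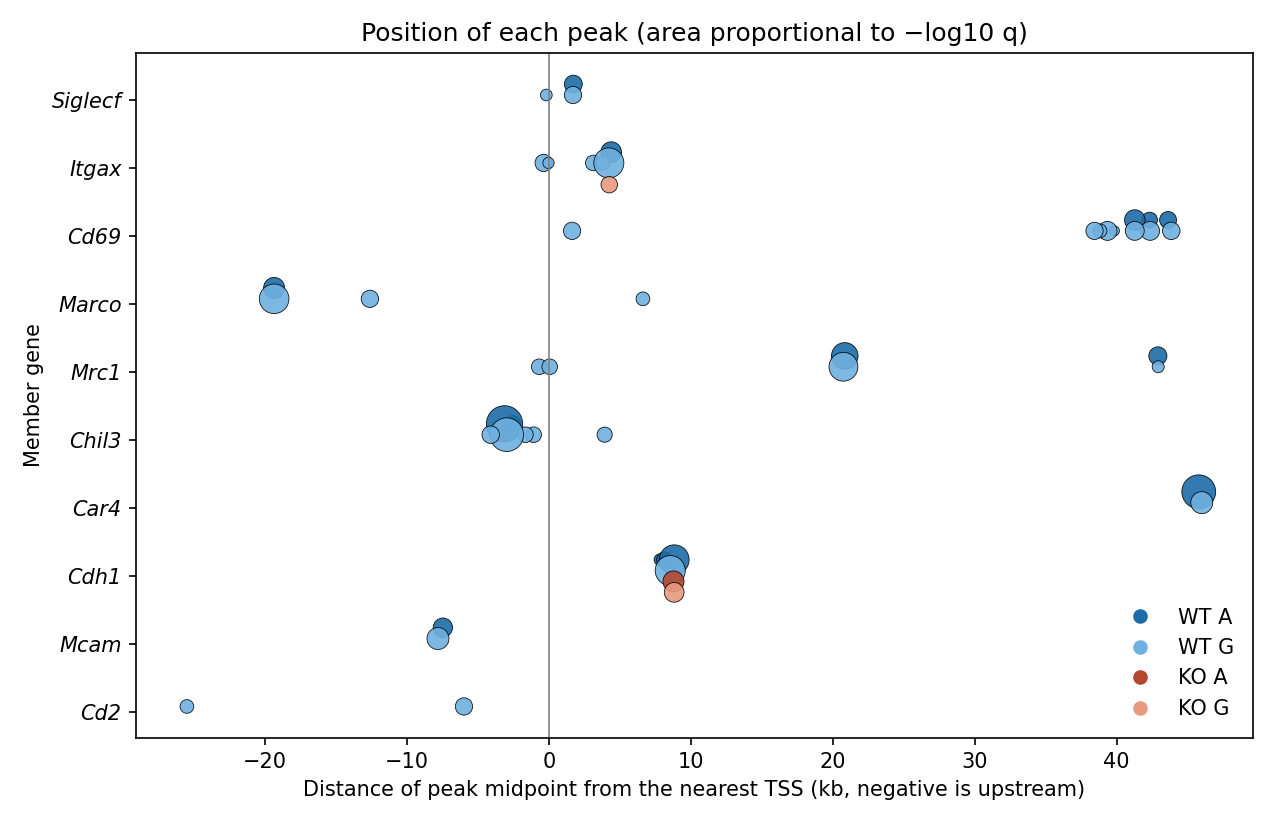
Distance in kb of each peak midpoint from the nearest TSS (horizontal axis, negative is upstream) for each member gene (vertical axis), coloured by list, with the area of each circle proportional to its −log10 q. The Cd69 and Car4 circles shared by both WT lists lie over 40 kb from the TSS, and those of Siglecf, Chil3 and Itgax within 5 kb.

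The lectins come first. Siglecf encodes the sialic acid-binding lectin that marks mature AMs. Its region in both WT lists, chr7:43353123-43353363, lay 1.695 kb downstream of the TSS in intron 4 of 8. Its −log10 q was 6.15 in WT A and 5.73 in WT G, with a fold enrichment of 6.26 and 6.45, on 15 and 9 fragments. These peaks were of ordinary size, at or above 39.3% of the WT A list and 67.1% of the WT G list by −log10 q. WT G alone had a second peak 0.184 kb upstream of the TSS, with a −log10 q of 2.63 on 6 fragments.

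Cd69 encodes a C-type lectin that marks activation and retention in tissue. It had the most regions of the 10 genes, 8 in WT G and 3 of them in both WT lists. All 3 lay in a cluster from 41.3 to 43.8 kb downstream of the Cd69 TSS, inside the non-coding gene 2310001H17Rik. The region at chr6:129233964-129234201 reached a −log10 q of 8.06 (WT A) and 6.88 (WT G), and had its midpoint in the promoter window of that non-coding gene. The neighbouring region at chr6:129232429-129233572 had 4.71 and 6.88. The remaining region, at chr6:129231226-129231822, had 5.503 and 5.87. The order of these regions by −log10 q differed between WT A and WT G. WT G alone had 4 more peaks in the same non-coding gene, from 38.4 to 39.8 kb downstream of the Cd69 TSS, with a −log10 q between 1.93 and 6.94, and 1 in intron 1 of Cd69 itself, 1.63 kb from the TSS, with 5.73. The next protein-coding TSS from the cluster was that of Clec2d, 50.9 kb from the farthest of the 3 regions, which lay 43.8 kb from Cd69. Counting genes of every biotype, the 3 regions were nearest to 2310001H17Rik, the closest of them 0.108 kb upstream of its TSS.

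Mrc1 encodes the mannose receptor CD206. The stronger of its regions in both WT lists, chr2:14249488-14250802, lay 20.8 kb downstream of the TSS in intron 4 of 29. Its −log10 q was 13.5 in WT A and 15.9 in WT G, with fold enrichments of 9.46 and 11.6 on 23 and 17 fragments, and it stood at or above 88.9% and 97.2% of the peaks in those lists. A weaker region in intron 9, chr2:14272161-14272494, at 42.9 kb, reached a −log10 q of 6.27 (WT A) and 2.74 (WT G), where it rested on 7 fragments. WT G alone had a pair of peaks at the TSS, each with a −log10 q of 4.64 on 8 fragments, centred 0.686 kb upstream and 0.054 kb downstream. Counting genes of every biotype, both intronic regions were nearest to Mir511, a microRNA gene within Mrc1, at 10.9 and 11.3 kb.

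Chil3 encodes Ym1, a chitinase-like lectin that is secreted and so is not itself a surface protein. It had the highest −log10 q of the members in both WT lists. The region, chr3:106169951-106171125, lay 2.97 kb upstream of the TSS between genes. WT A covered it with 2 peaks, the stronger with a −log10 q of 25.2, a fold enrichment of 12.8 and 37 fragments, and WT G with 1 wide peak of 21.7, 13.8 and 22 fragments. Those values were at or above 98.2% and 98.8% of their lists. WT G alone had 4 smaller peaks, 3 of them upstream of the TSS at 1.08, 1.65 and 4.10 kb, and the other in intron 3. Chil3 has close relatives nearby, Chil4 being the next protein-coding TSS at 49.0 kb, and reads from near-identical copies can be misplaced or removed by the alignment filter, which was not tested.

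Marco encodes a scavenger receptor for particles and bacteria. Its region in both WT lists, chr1:120524050-120524728, lay 19.4 kb upstream of the TSS with no gene body over the summit. The −log10 q was 8.49 in WT A and 16.8 in WT G, the fold enrichment 7.12 and 11.7, and the fragments 20 and 19. The summits in WT A and WT G were 7 bp apart. WT G alone had peaks at 12.6 kb upstream (5.73) and in intron 1 (3.61).

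Car4 encodes a carbonic anhydrase held on the membrane by a lipid anchor. Its only region, chr11:85003284-85004030, was in both WT lists and was the most distant of all member regions, 45.9 kb downstream of the Car4 TSS and inside intron 29 of 33 of Usp32. The −log10 q was 22.0 in WT A and 9.26 in WT G, with fold enrichments of 12.6 and 8.38 on 31 and 12 fragments. Among the members this was the region where WT A exceeded WT G by the most in −log10 q. With the TSSs of the comprehensive annotation it was nearest to Usp32, 15.0 kb upstream of one of its TSSs, so Car4 then had no region.

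The integrin and adhesion genes follow. Itgax encodes CD11c, the integrin alpha X subunit. Its region in both WT lists, chr7:128133545-128134082, lay 4.26 kb downstream of the TSS with its summit in the coding sequence of exon 8 of 30. The comprehensive annotation holds an Itgax TSS 0.993 kb from it, on its downstream side. The −log10 q was 8.06 in WT A and 17.3 in WT G, and KO G had a peak there with 5.20, while KO A had none. The fold enrichment was 7.501 for WT A, 12.2 for WT G and 6.72 for KO G, on 18, 18 and 12 fragments. The KO G summit was 6 bp from that of WT G, and the WT A summit was 118 bp from it. WT G alone had 4 more Itgax peaks, with a −log10 q between 2.45 and 5.73. The −log10 q and fold enrichment of both WT libraries were above those of KO G. The −log10 q depends on the correction for multiple testing within each list. Before that correction, the −log10 p of the peak caller (Poisson tail) was 12.26 (WT A), 22.23 (WT G) and 10.55 (KO G). As fragments over the local background, however, with those of WT A scaled by 0.884, WT A (12.7) was not above KO G (12.8). WT G stood at 32.7. With 1 KO peak no test can be made.

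Cdh1 encodes E-cadherin, the homotypic adhesion molecule of epithelia that AMs also carry. Its region was the only one of the members with a peak in all 4 lists. It spanned chr8:106611110-106612677, 8.51 kb downstream of the TSS in intron 2 of 15. The strongest peak reached a −log10 q of 17.0 (WT A), 17.3 (WT G), 8.48 (KO A) and 7.47 (KO G). Fold enrichments were 11.0, 12.2, 8.14 and 7.75, in that order, and the fragments 27, 18, 15 and 14. Both WT values lay above both KO values on each of these scales. The −log10 q also depends on the correction within each list, and the fragments on the depth of each library. Before that correction, the −log10 p of the peak caller (Poisson tail) was 21.95 (WT A), 22.23 (WT G), 13.96 (KO A) and 12.93 (KO G). An exact permutation test of 2 against 2 cannot pass 0.05, so the difference is given as values. WT A called 3 peaks over the region, WT G called 1 peak of 1498 bp, and the KO lists called 1 peak each of 150 and 326 bp, both inside the strongest WT A peak. The summits of WT A, KO A and KO G were 127, 197 and 124 bp from that of WT G. The sequence printed above is centred on the WT G summit and holds none of these others.

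**Figure D3:**
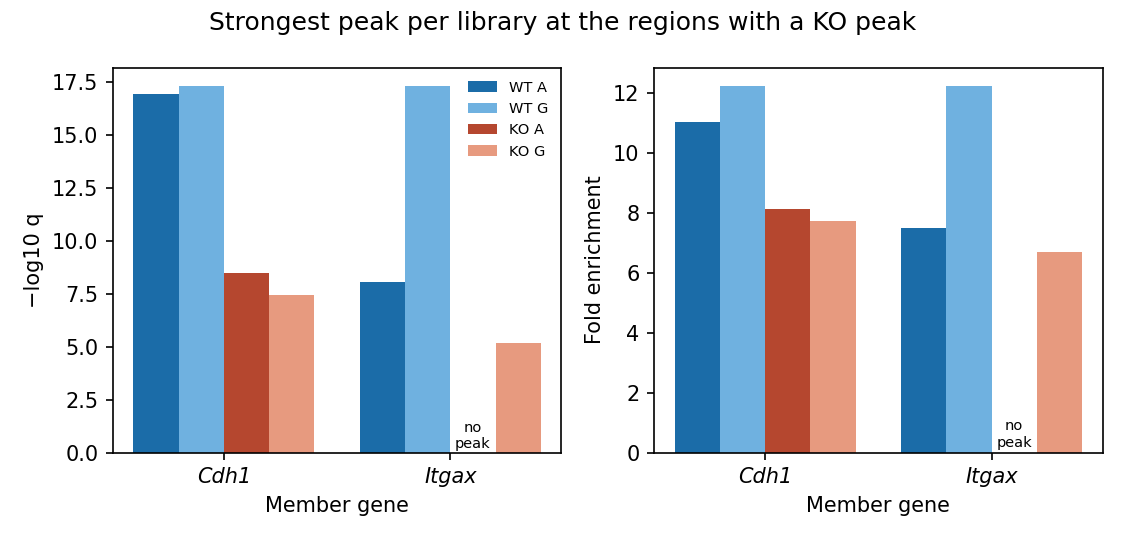
The −log10 q (left panel) and fold enrichment (right panel) of the strongest peak in each list, WT A, WT G, KO A and KO G, at the Cdh1 and Itgax regions. Both KO bars at Cdh1 are lower than both WT bars, and KO A had no Itgax peak. The −log10 q also depends on the correction for multiple testing within each list.

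Mcam encodes CD146, an adhesion molecule of vessels and other cells. Its region, chr9:44126229-44127257, lay 7.82 kb upstream of the TSS in an intron of Gm10687, annotated as an antisense gene. The −log10 q was 7.14 in WT A and 9.26 in WT G, with fold enrichments of 6.72 and 8.38 on 16 and 12 fragments. Cd2 encodes an adhesion receptor that binds CD48. It had no WT A peak and 2 WT G peaks, at 5.99 and 25.5 kb upstream of the TSS, with a −log10 q of 5.73 and 3.61 on 9 and 7 fragments.

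The KO lists were then read against these regions. Of the 12 regions in both WT lists, 2 had a KO peak (16.7%, exact binomial interval 2.09 to 48.4), against 5.87% of all 3423, and the interval includes the latter. The count was 1 of 12 without KO G, and 0 of 6 where at least 50% of both WT peaks had to overlap. For the depth of the KO libraries, the fragments of each WT summit were divided by the genome-wide background of its library. Those of WT A were first scaled by 0.884, the factor of its pileup. The ratio was then multiplied by the background of each KO library. The same ratio would have given from 10.2 to 38.6 fragments at the depth of KO A and from 9.90 to 37.4 at that of KO G. The weakest called peak had 10 fragments in KO A, or 8 in KO G, and all 12 regions were at or over that number in each of the 4 pairings of a WT with a KO library. The 3 values within 1 fragment of it were for KO A, computed from WT A. The local background was over 1.1 times the genome-wide level at 5 of the 12 regions in WT A (1.30 to 1.59 times) and at 4 in WT G (1.202 to 1.39 times), and a call needs more fragments there. The part of depth in the missing KO peaks was not tested.

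Strength in the WT lists was compared region by region. The −log10 q was higher in WT G at 7 of the 12 regions (58.3%), against 48.8% of all regions in both WT lists. Over the 12 regions the median −log10 q was 8.06 in WT A and 9.26 in WT G, against 8.06 and 8.04 over all 3423. The ratio of fragments to the genome-wide background, with WT A fragments scaled by 0.884, was higher in WT G at 11 of the 12. Its medians were 12.7 (WT A) and 21.8 (WT G), and it was higher in WT G at 96.6% of all regions. The summits of WT A and WT G were between 3 and 210 bp apart, with a median of 54.0 bp against 96 bp over all regions. The member regions therefore lay within the range of the other regions on each of these measures.

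**Figure D4:**
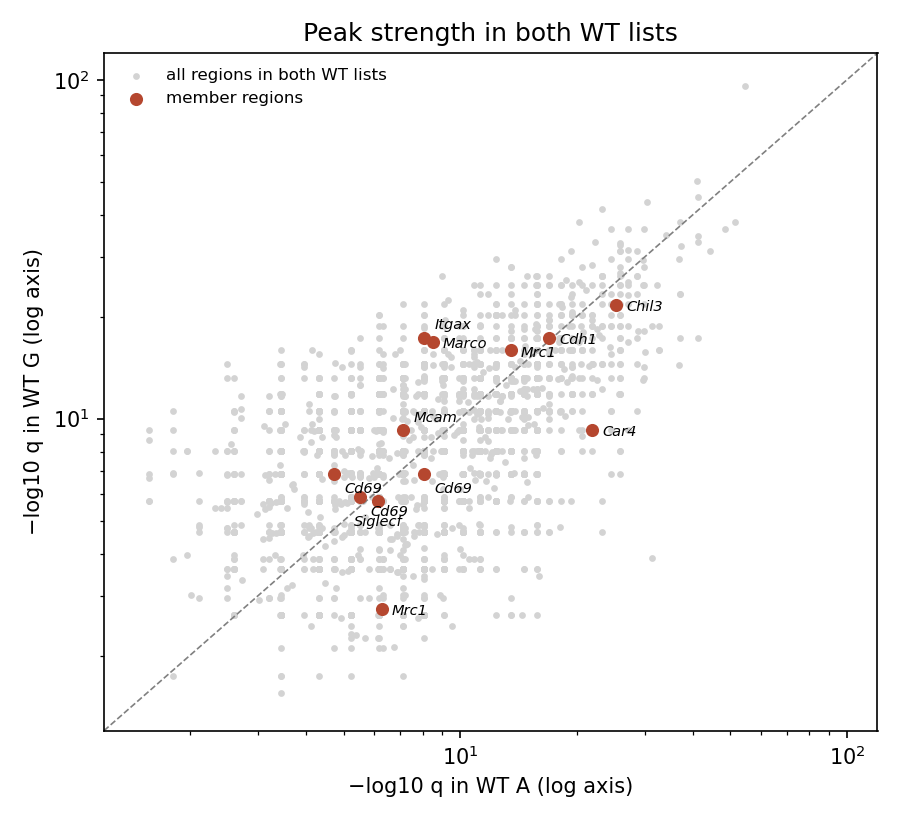
The −log10 q in WT A (horizontal log axis) against that in WT G (vertical log axis) for the 12 member regions in both WT lists, labelled by gene, and all 3423 such regions in grey, with the line of equal values dashed. Chil3 was the highest member in both, Car4 lies below the line at 22.0 and 9.26, and Itgax and Marco lie above it.

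The regions with a WT G peak alone were weaker. Their −log10 q ran from 1.93 to 6.94 with a median of 4.64, on 6 to 11 fragments, and all 6239 such regions had the same median. Of the 20, 5 were in a promoter, a window of 1 kb before and 100 bp after a TSS (25.0%, exact binomial interval 8.66 to 49.1), against 18.3% of all such regions. Of the 12 in both WT lists, 1 was in a promoter (8.33%, interval 0.211 to 38.5), against 10.8%, and that was the promoter of 2310001H17Rik. By the TSSs of the basic set, no member gene thus had a peak at its own promoter in WT A, while Siglecf, Itgax and Mrc1 had one or more in WT G.

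The promoters of those 3 genes are shown because WT G peaks lie over all or part of them. The upstream peak of Mrc1 is an exception and ends before the stretch shown. Each line gives the 250 bases before the RefSeq start (GRCm38.p6, the assembly of mm10), 5′ to 3′ on the strand of the gene, with capitals for the same factor letters as above and AP-1. The table of promoters held 7 of the 10 members.
Siglecf promoter, chr7:43351091-43351340: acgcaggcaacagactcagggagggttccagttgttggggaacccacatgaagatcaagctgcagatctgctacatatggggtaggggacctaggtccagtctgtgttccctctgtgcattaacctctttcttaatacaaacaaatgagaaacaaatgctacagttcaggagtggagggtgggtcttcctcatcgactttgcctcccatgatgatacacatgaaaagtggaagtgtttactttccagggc
Itgax promoter, chr7:128129300-128129549: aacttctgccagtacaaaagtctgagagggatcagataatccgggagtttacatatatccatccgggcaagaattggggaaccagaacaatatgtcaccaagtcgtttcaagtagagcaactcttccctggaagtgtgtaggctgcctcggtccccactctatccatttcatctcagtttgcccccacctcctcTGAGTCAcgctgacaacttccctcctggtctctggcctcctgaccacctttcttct
Mrc1 promoter, chr2:14229164-14229413: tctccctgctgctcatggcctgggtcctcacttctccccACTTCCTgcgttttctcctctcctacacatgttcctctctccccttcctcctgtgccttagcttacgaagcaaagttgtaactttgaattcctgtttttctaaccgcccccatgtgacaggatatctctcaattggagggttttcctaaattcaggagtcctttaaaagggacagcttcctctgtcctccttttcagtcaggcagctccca
The Itgax promoter held the AP-1 letters, which 6.75% of 32851 promoters of this length held, and the Mrc1 promoter held those of PU.1 (7.69%). The PU.1 letters of Mrc1 lay in the gap between its pair of WT G peaks and under neither of them. The Siglecf promoter held none of the 8 motifs searched, and none of the 3 held AGGTCA (14.0%).

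The members differed in how common their pattern of peak numbers over the 4 lists was. No other protein-coding gene had the numbers of Cdh1 (3, 1, 1 and 1), 1 other gene had those of Itgax, 8 had those of Cd69 and 32 those of Chil3. The 3 WT A peaks of Cdh1 lay in 1 region that WT G called as 1 peak, so its pattern depends on that split. The single peak in each WT list of Car4 and Mcam was shared with 518 other genes. The space in which a peak would be given to a member came to 0.820 Mb, or 0.0301% of the genome, and held 14.6 regions in both WT lists per Mb, against 1.26 per Mb over the whole genome. This ratio is a description of a chosen list.

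Other gene lists were counted in the same way. Of 30 other genes of AMs, 17 (56.7%) had the nearest TSS to a region found in both WT libraries, among them Pparg, which encodes the partner receptor, Fabp1 and Lpl, which encode a lipid carrier and a lipase, and Krt79. Of 20 genes of monocytes and other macrophages, 2 (10%) were, Cd14 and Cx3cr1. The share over all protein-coding genes was 8.82%. Both lists were chosen with earlier results of these data known. The study also names Pparg, Fabp1 and Abcg1 among the genes that it took to be under direct RXR control. The shares are therefore descriptions of chosen lists. Peaks in the KO were nearest to 1 gene of the first list, Abcg1, a cholesterol transporter, and to 1 of the second, Ly6c2, both in KO G. Over all protein-coding genes, 0.351% were nearest to a KO A peak and 0.858% to a KO G peak.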

How the data were processed

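RXRα HT-ChIPmentation peak lists of 4 libraries were analysed, grouped by the genotype in the sample labels. Per the submitters' processing notes and the methods of the study, the authors trimmed reads with cutadapt, aligned them to mm10 with Bowtie2, filtered them with SAMtools and called peaks in each library against the input with MACS3 at a q threshold of 0.05, without pooling replicates. The fold enrichment deposited by the authors is a ratio of ChIP pileup to local background at the summit, with 1 added to each as a pseudocount. The −log10 p and −log10 q values deposited by the authors belong to the summit. The score deposited by the authors is 10 times the −log10 q, cut to a whole number. The lists hold no read counts, so no count model was used and depth is known only through derived fragments.

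Peaks were assigned by midpoint to the nearest protein-coding TSS of GENCODE M21 (basic set). Fragments at a summit were solved as whole numbers from the fold enrichment and −log10 p (Poisson tail, within 0.01); all peaks of the 4 lists were solved, with the WT A pileup scaled by 0.884. The weakest called peaks held 10 (WT A), 5 (WT G), 10 (KO A) and 8 (KO G) fragments, and the most frequent background levels, taken as genome-wide, were 1.25, 0.551, 0.966 and 0.936 fragments. Regions were annotated at midpoints, and gene features were read at summits. Consensus motifs were scanned on both strands, 11 in all; a single hexamer inside a repeat counts for both. Peak numbers were compared by an exact permutation test (two-sided), and shares carry exact (Clopper-Pearson) intervals, which cover counting error only. Python 3.11.15 was used with pandas 2.3.3, numpy 2.4.6, pysam 0.24.0, scipy 1.17.1 and matplotlib 3.10.9. The functions were tested on simulated data. All 10 members were named, with every peak; summit sequences are printed for 8 genes, 1 region each, and that of Mcam is not reported here. The members, gene lists and tests were chosen with earlier results of these data known.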

Additional observations from a re-analysis of the deposited data

How the results depend on the processing

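The number of member peaks was higher in WT than in KO under each alternative run, but its p cannot pass 0.05 at this size and says nothing about stability. The difference of 22 peaks ranged from 13.5 to 30.5 when each library was left out in turn, the lowest without WT G and the highest without WT A. With the letters A and G as pairs (a replicate block) the mean of the within-letter differences was also 22. The letters are only a shared label: the deviations of the same letter in WT and KO correlated at 0.0992 over 3836 genes. With genes of every biotype in place of protein-coding genes, the difference fell to 13.5 peaks and 6 of the 12 shared WT regions were left. Those of Cd69, Mrc1 and Mcam were then nearest to non-coding genes. Where at least 50% of both peaks had to overlap, 6 regions at 6 genes were left. Itgax, Cdh1 and Mcam lost theirs, and Cd69 and Mrc1 some of theirs, because their WT A and WT G peaks overlapped by less, and as Itgax and Cdh1 had the regions with a KO peak, 0 of those left had one. Leaving out each library in turn gave between 1 and 2 regions with a KO peak, the lower without KO G, where that of Cdh1 was left. The weaker Mrc1 region was lost at a −log10 q of at least 3 and where WT G was cut to as many peaks as WT A. The DR1 count was 0 with the wider window and at the summits of either WT list; with fewer mismatches or a stricter q it could only be 0. Single peaks rest on few fragments, which limits every comparison of strength.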
